A study of Homo sapiens with 18 samples.

Results

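MIAT is a long noncoding RNA gene on human chromosome 22, also named GOMAFU and RNCR2, and it was examined here as the locus with the largest number of QKI eCLIP peaks. All entries of 12 deposited peak lists that overlapped the plus strand of chr22:27053000-27072500 (hg19) were taken, which gave 1175 of 889743 entries in all lists. MIAT was chosen by its number of peaks in these data, so the number of peaks and the share of peaks are given below as a description, with no test.

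The study profiled QKI in HUES6, a human embryonic stem cell line, at day 0, day 4 and day 8 of differentiation towards cardiomyocytes, with 3 IP libraries and 3 input libraries per day. Day 0 cells were pluripotent cells kept overnight in FTDA medium. Cells of day 4 and day 8 first received CHIR (1.5 uM) together with BMP4 (1.5 ng/mL), then C59 at 100 nM (1 passage of the labels gives another unit for C59). Day 4 cells were taken as cardiac progenitors, and day 8 cells were taken once they beat. All groups received ultraviolet light on ice (400 mJ/cm2) before lysis, and an anti-QKI antibody was used for the IP. All cells were of 1 line, and the labels leave unsaid if replicates are different cultures, and replicate spread may therefore be technical. Peak lists do not measure RNA levels, so the cell type at each day was not checked here.

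QKI belongs to the STAR family of RNA-binding proteins. It recognises RNA at ACUAAY-like sequences and is known as a regulator of splicing, RNA stability and circular RNA formation, with roles in myelinating glia, muscle and heart. MIAT is a spliced RNA that stays in the nucleus, was named for a genetic association with myocardial infarction, and is known for tandem UACUAAC repeats that bind splicing factors. In eCLIP, RNA fragments crosslinked to the protein are sequenced beside a size-matched input, and a cluster of reads is scored by its enrichment over input. A cluster is called a passing peak here when its fold over input was at least 4 and its p at or below 0.001, both by the authors' values. Fewer MIAT molecules and less QKI on each molecule cannot be told apart in such lists.

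The 9 IP libraries held 3030 to 15508 passing peaks each. The day 0 libraries had 15508, 12695 and 13069, the day 4 libraries 3030, 7775 and 3999, and the day 8 libraries 6320, 3726 and 10966. The lists hold peaks and not reads, so the sequencing depth is unknown, and the part of depth in the peak numbers below was not tested.

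All passing peaks in MIAT lay in the part of the window towards its 3′ end. The first 12790 nt of the window held no passing peak in any day 0 or day 4 library. At day 8 the first peak lay at 27064971, in replicate 3 only. The last passing peak ended at 27072039, in day 4 replicate 1, so all passing peaks fell within 7069 nt. No cluster was listed on the minus strand of the window in any library. Outside the window the nearest upstream cluster on the plus strand was at least 165338 nt away in every library, and the nearest downstream one was 1023 nt away in day 8 replicate 3, 3449 nt away in day 8 replicate 1 and at least 33687 nt away in the other 7 libraries.

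**Figure D1:**
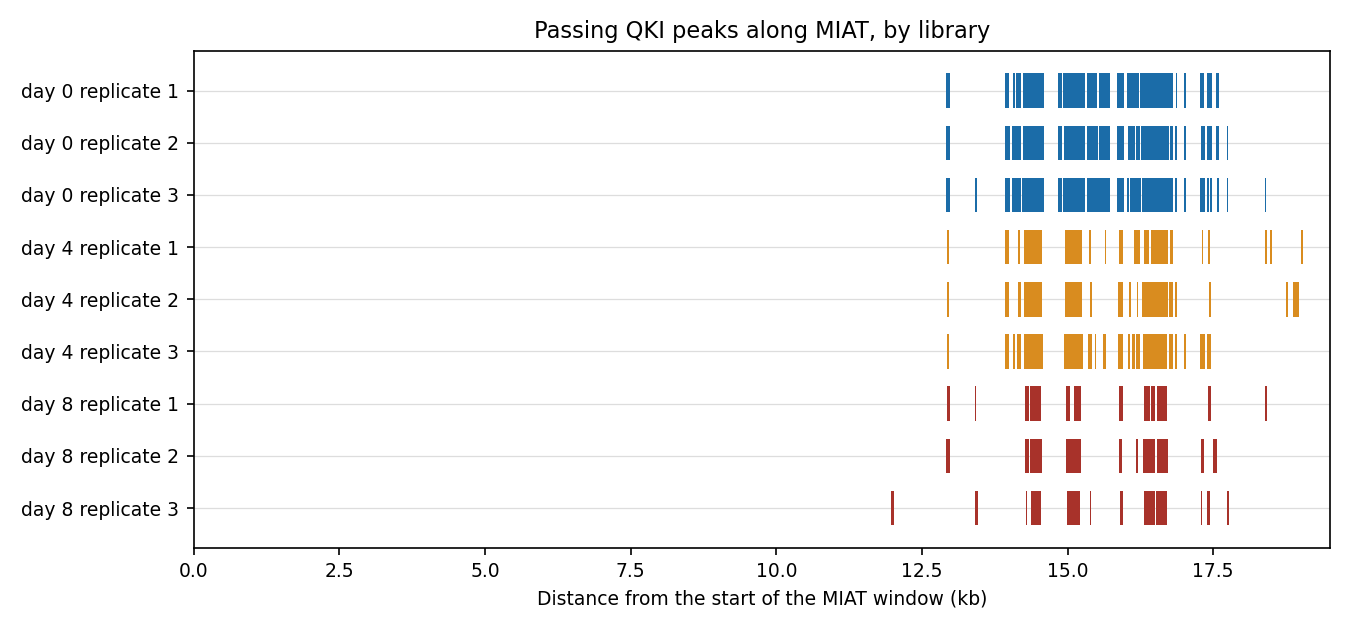
Passing QKI peaks along MIAT in each of the 9 IP libraries, as filled bars at their true width. The x axis is the distance in kb from the start of the window on the plus strand, with 1 line per library from day 0 at the top to day 8 at the bottom. The day 0 libraries have 31 or 32 separate stretches and the day 8 libraries have 10 to 14.

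MIAT held 231, 243 and 239 passing peaks in the day 0 libraries, 33, 40 and 47 in the day 4 libraries, and 17, 19 and 18 in the day 8 libraries. The means were 237.7 ± 6.11 at day 0, 40 ± 7 at day 4 and 18 ± 1 at day 8 (SD, n = 3 each). The day 8 mean was thus 0.0757 of the day 0 mean. Over the whole library too, every day 0 library held more passing peaks than any later library. Fewer peaks at the later days were therefore not particular to MIAT. Most listed clusters passed: the libraries listed 231, 243 and 239 clusters of any fold at day 0, 34, 40 and 47 at day 4, and 17, 20 and 21 at day 8.

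The peaks of day 0 were narrow and lay edge to edge. The median peak width in MIAT was 7, 8 and 8 nt in the day 0 libraries, 44, 37 and 32 nt in the day 4 libraries, and 58, 53 and 48 nt in the day 8 libraries. Over all passing peaks of a library the median width was 60 to 70 nt in every library, so the day 0 peaks of MIAT were far narrower than the peaks around them. Peaks of at most 10 nt numbered 150, 153 and 150 in MIAT at day 0, 4, 5 and 4 at day 4, and 0, 0 and 1 at day 8.

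These narrow peaks were concentrated in MIAT. Of all passing peaks of at most 10 nt in a day 0 library, 41.6%, 43.3% and 44.1% lay in this window. Within MIAT, 96.1%, 96.7% and 94.6% of the day 0 peaks touched another passing peak, against 17.7%, 19.7% and 16.2% over the whole library. At day 8 the shares were 47.1%, 68.4% and 38.9% in MIAT, against 15.7%, 15.4% and 9.85% over the library, so touching peaks were more frequent in MIAT than in the library at both days.

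Touching or overlapping passing peaks were therefore also joined into footprints, and the nucleotides under passing peaks were counted. MIAT had 31, 32 and 32 footprints in the day 0 libraries, 19, 18 and 21 in the day 4 libraries, and 12, 10 and 14 in the day 8 libraries. A footprint was made of 7.45 to 7.59 peaks at day 0, 1.74 to 2.24 at day 4 and 1.29 to 1.90 at day 8. The covered length was 2476, 2562 and 2631 nt at day 0, 1566, 1621 and 1890 nt at day 4, and 988, 1191 and 1033 nt at day 8. Its means were 2556 ± 77.7, 1692 ± 173 and 1071 ± 107 nt (SD, n = 3 each). The day 8 mean was 0.419 of the day 0 mean by covered length and 0.379 by footprints, against 0.0757 by peaks, so the size of the difference depended on which of these was counted. Over the whole library the covered length was 1105862, 892974 and 920503 nt at day 0. At day 4 it was 187867, 547099 and 288794 nt, and at day 8 it was 431467, 259186 and 734543 nt. Every day 0 library lay above every later library there, as in MIAT, so a shorter covered length at the later days was not particular to MIAT.

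**Figure D2:**
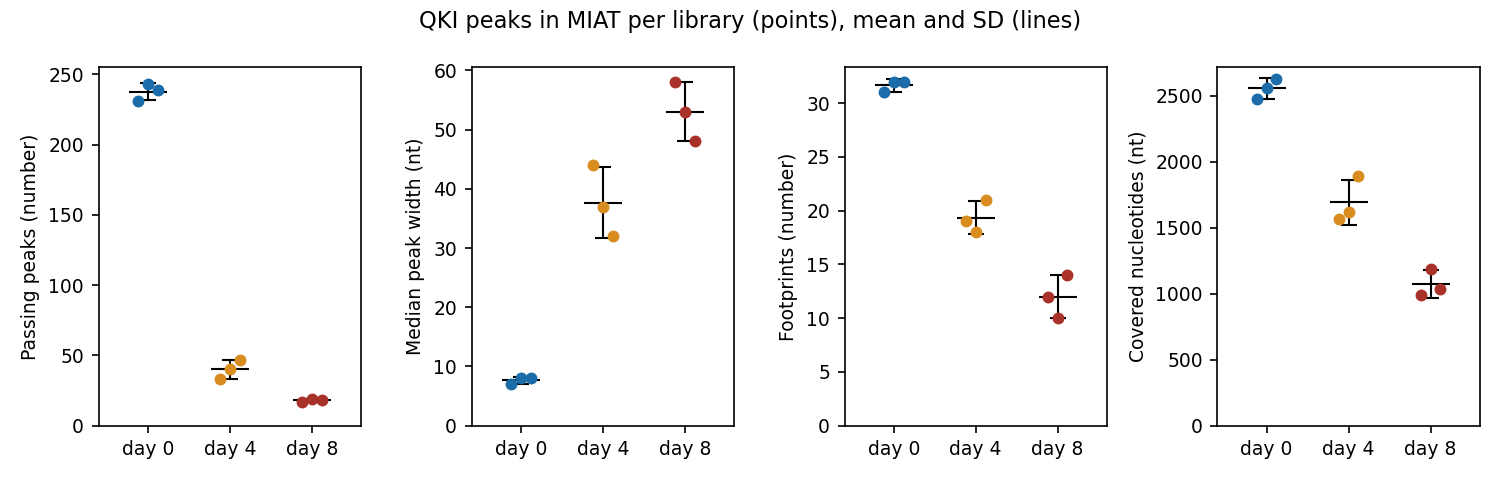
The number of passing peaks, the median peak width in nt, the number of footprints and the number of covered nucleotides in MIAT at day 0, day 4 and day 8. Points are the 3 libraries of a day, and lines are the mean and SD. Passing peaks differ far more between day 0 and the later days than footprints and covered nucleotides do.

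The authors' −log10 p-values were capped at 400, and MIAT reached that limit at day 0. All 231, 243 and 239 passing peaks were at the cap in the day 0 libraries, which was 40.2%, 52.3% and 48.6% of all capped passing peaks of these libraries. At day 4 there were 11, 5 and 8 capped peaks in MIAT, and at day 8 there were 0 in each library. Beyond the threshold for a passing peak, the authors' folds over input are used only to rank peaks within a list. Among the 100 passing peaks with the highest fold of each library, MIAT held 85, 75 and 76 at day 0, 15, 19 and 29 at day 4, and 7, 12 and 4 at day 8.

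The locus was not the fullest at every day. The reproducible peaks of the authors' merged lists were joined within 20 kb on a strand into 155 loci of at least 10 peaks, with the MIAT window as 1 of them. By number of passing peaks MIAT ranked 1, 1 and 1 in the day 0 libraries, 2, 2 and 1 in the day 4 libraries, and 10, 9 and 11 in the day 8 libraries. By covered nucleotides it ranked 3, 2 and 2 at day 0, 1, 2 and 1 at day 4, and 11, 6 and 10 at day 8. MIAT thus held the most passing peaks in every day 0 library, where the next locus had 86, 80 and 62. It did not lead by covered nucleotides at day 0 or by either measure at day 8. At day 4 it led by peaks in replicate 3 only, and by nucleotides in replicates 1 and 3. The loci differ in length, and peaks per unit of length were not compared, so these ranks do not measure density.

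To set MIAT against libraries of unequal size, its peaks were given as a share of all passing peaks of the library. This share was 1.49%, 1.91% and 1.83% in the day 0 libraries, 1.09%, 0.514% and 1.18% in the day 4 libraries, and 0.269%, 0.510% and 0.164% in the day 8 libraries. The day 8 libraries were all below the day 0 libraries, and day 4 replicate 2 lay near the highest day 8 library. On the log2 scale, limma gave a day 8 minus day 0 difference of -2.58 ± 0.49 (SE), a day 4 minus day 0 difference of -0.98 ± 0.49 and a day 8 minus day 4 difference of -1.60 ± 0.49. No p-value is given for these shares because peak numbers chose the locus. Of the 155 loci, 20.6% were called lower at day 8 than at day 0 in the same fit, from which nothing is read about MIAT.

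The share of covered nucleotides, a measure that does not count a divided peak more than once, gave another order. MIAT held 0.224%, 0.287% and 0.286% of all covered nucleotides in the day 0 libraries, 0.834%, 0.296% and 0.654% in the day 4 libraries, and 0.229%, 0.460% and 0.141% in the day 8 libraries. The day 8 libraries lay on both sides of the day 0 libraries, and all 3 day 4 libraries lay above them. In limma over the 155 loci the day 8 minus day 0 difference was -0.10 ± 0.56 (log2, SE; 95% interval -1.36 to 1.15; Benjamini-Hochberg adjusted p = 0.917). The day 4 minus day 0 difference was 1.05 ± 0.56 (adjusted p = 0.188, limma), and the day 8 minus day 4 difference was -1.15 ± 0.56 (adjusted p = 0.254, limma). None of the 3 differences passed the threshold of 0.05, and the first interval leaves room for a difference of either sign. Covered nucleotides come from the same peaks whose number chose the locus. The p-values of this paragraph are therefore not free of that choice, and no result about MIAT rests on them. In this fit 12.9% of loci were called lower at day 8 than at day 0, 11.0% were called higher at day 4 than at day 0, and 3.87% were called lower at day 8 than at day 4. With each library cut to its 3030 peaks of highest fold, the day 8 minus day 0 difference was -1.24 (adjusted p = 0.0018, limma) and the day 4 minus day 0 difference was -0.60 (adjusted p = 0.0484, limma), so the call and, at day 4, the sign changed. With equal numbers the median over all 155 loci was itself -0.41 and -0.42 for these differences, and 21.9% and 21.3% of loci were called lower, MIAT among them. The cut kept peaks by fold, and MIAT held 85, 75 and 76 of the 100 highest folds in the day 0 libraries. These calls therefore depend on how the peaks were selected, and no difference in MIAT is read from them.

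**Figure D3:**
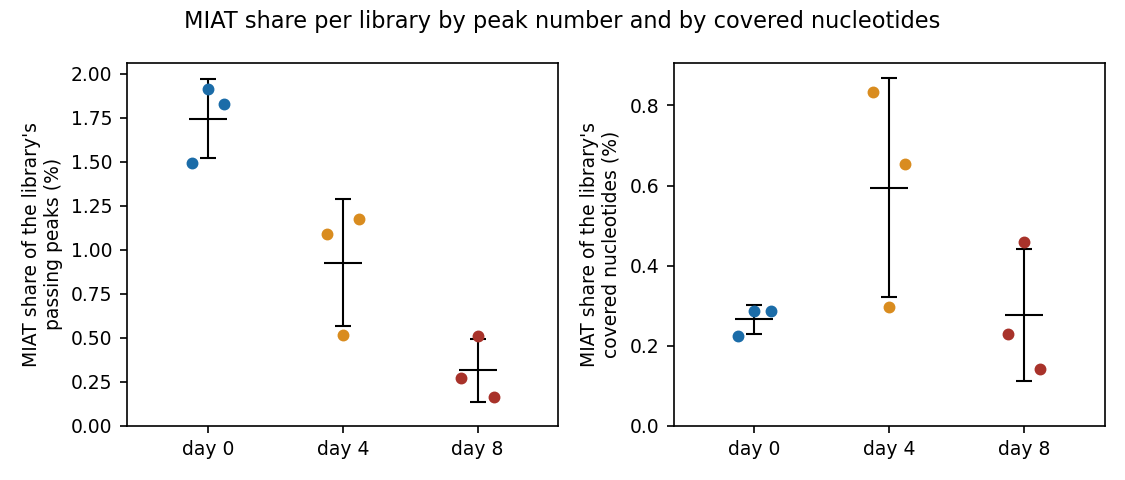
MIAT's share of the passing peaks (left, %) and of the covered nucleotides (right, %) of each library at day 0, day 4 and day 8. Points are libraries, and lines are the mean and SD of 3. By peaks the day 8 libraries are all below the day 0 libraries, and by nucleotides they lie on both sides of them.

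The gap between both measures was wide in MIAT. The day 8 minus day 0 difference by nucleotides exceeded that by peaks by 2.48 on the log2 scale, while the median over the 127 loci with passing peaks in every day 0 and day 8 library was 0.07. This was the widest gap of the 127 loci, and the next was 1.87. The peak share that entered it also chose the locus, so the gap is a description with no test.

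**Figure D4:**
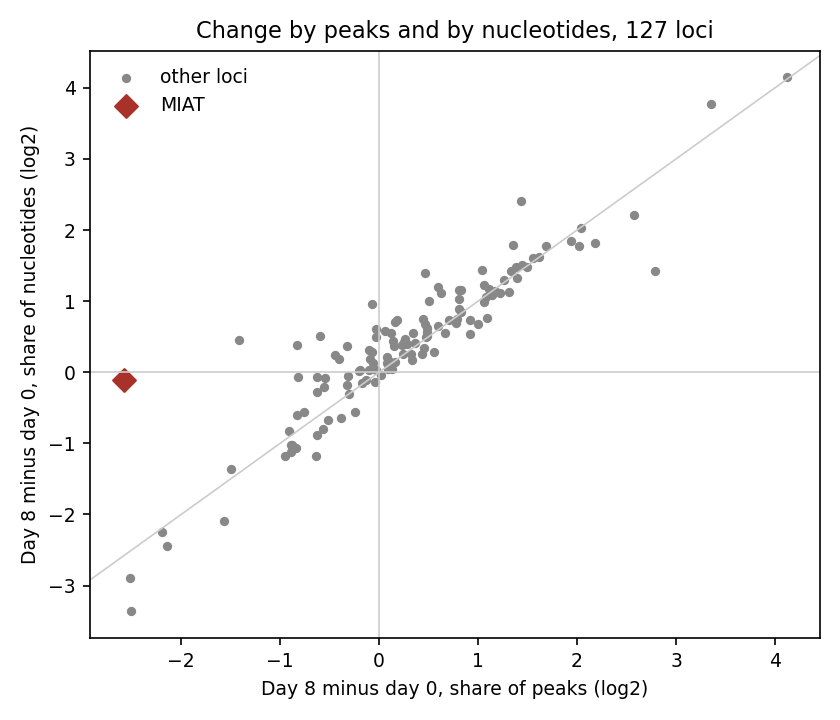
The day 8 minus day 0 log2 difference in the share of passing peaks (x axis) and in the share of covered nucleotides (y axis) for 127 loci, with MIAT as a red diamond and the other loci in grey. The diagonal line marks equal differences. MIAT lies at -2.58 on the x axis and -0.10 on the y axis, farthest above the diagonal.

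Where the peaks lie along the RNA was not used to choose the locus. The overlap of a pair of libraries was measured by the Jaccard index, the covered nucleotides they share over all that either covers. It was 0.893 to 0.926 within day 0, 0.677 to 0.698 within day 4 and 0.591 to 0.648 within day 8. Between days it was 0.523 to 0.714 for day 4 with day 0, 0.345 to 0.440 for day 8 with day 0 and 0.455 to 0.586 for day 8 with day 4. Day 4 replicate 3 reached 0.714 with day 0 libraries, above its highest value within day 4.

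The mean index was 0.741 within days and 0.498 between days, a difference of 0.243 with a one-sided exact permutation p of 0.00357, the smallest that the 280 partitions allow (adjusted p = 0.00714 over the 2 permutation tests). Unequal covered length caps this index: for day 8 with day 0 the lengths allow at most 0.419 on average, and the observed mean was 0.378. When the shared nucleotides were instead divided by those of the library that covers fewer, which length does not cap, the mean was 0.888 within days and 0.915 between days. That difference was -0.0264 (one-sided exact permutation p = 1). This ratio depends on length in another way, since a short set lies within a long one more easily than within another short one. It averaged 0.929 for day 8 with day 0 and 0.821 within day 8. Neither measure can therefore decide if positions differed between days, and no difference in position is read from either p.

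The centre of the bound part was compared by the median covered position. It was 15540 ± 25.5 nt from the window start at day 0, 15731 ± 149 nt at day 4 and 15505 ± 359 nt at day 8 (SD, n = 3 each). The library medians ran from 15212 to 15905 nt, both at day 8. The exact permutation p of the F statistic over the 3 days was 0.443 (adjusted p = 0.443), which does not show that the days were alike. It was 0.00357 without day 8 replicate 2, 0.025 with peaks of p at or below 0.00001 and 0.0179 with peak midpoints in place of nucleotides.

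The later footprints lay almost wholly inside those of day 0. Of the covered nucleotides of the day 4 libraries, 93.9%, 91.2% and 99.2% were covered in at least 1 day 0 library, and for the day 8 libraries these shares were 97.4%, 95.6% and 91.9%. The same shares over the genome are not given here. No nucleotide was covered in all 3 day 4 libraries (1279 nt) or all 3 day 8 libraries (733 nt) and in no day 0 library. Over the genome this held for 5326 of 66543 nt at day 4 and 33859 of 124471 nt at day 8. By regions, which are the passing peaks of all 9 libraries merged (28 in MIAT), 0 of the 10 regions passing in all day 4 libraries lacked a day 0 peak, against 7.71% of such regions over the genome. Likewise 0 of the 4 regions passing in all day 8 libraries lacked one, against 26.9% over the genome. Any overlapping peak counted, so a wide region meets a day 0 peak more easily, and region widths over the genome were not compared.

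In MIAT, 2361 nt were covered in all 3 day 0 libraries. Of these, 715 nt (30.3%) were covered in all 9 libraries, against 7.86% of the 436878 such nucleotides of the genome. At day 8, 1148 nt (48.6%) were covered in no library, against 49.0% over the genome. At day 4, 510 nt (21.6%) were covered in no library, against 47.5% over the genome. Within the 1148 nt, 241 nt (10.2% of the 2361 nt) were covered in all day 4 libraries, against 0.625% over the genome. Also within them, 484 nt (20.5% of the 2361 nt) were covered in no library of either later day, against 36.3%. The share lost by day 8 was thus close to that of the genome, while the share lost by day 4 was below it and the share kept in all 9 libraries above it. Nucleotides of 1 transcript are not independent, and these shares carry no test.

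By regions, 17 of the 28 passed in all 3 day 0 libraries. Of the 17, 4 (23.5%) passed in all 9 libraries, against 9.14% over the genome. No day 8 library had a passing peak in 6 of the 17 (35.3%), against 46.6% over the genome, and no day 4 library had one in 3 (17.6%), against 44.9%. A region passed when any peak overlapped it, so a wide region passes more easily. The 4 regions were 115 to 552 nt wide. Region widths over the genome were not compared, and these shares are not read as particular to MIAT.

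The 4 regions that passed in all 9 libraries held most of the covered nucleotides of MIAT in every library, at day 0 as well as at the later days. With at least 50% of a region covered in each library, 2 regions and not 4 qualified, and no genome share is given for this rule. The first spanned chr22:27067221-27067596 (376 nt), and its covered length was 359, 360 and 376 nt at day 0, 305, 306 and 329 nt at day 4, and 250, 273 and 196 nt at day 8. The second spanned chr22:27067925-27068294 (370 nt), with 369, 364 and 370 nt covered at day 0, 296, 290 and 300 nt at day 4, and 175, 245 and 221 nt at day 8. The third was the shortest, chr22:27068848-27068962 (115 nt), with 105, 114 and 114 nt covered at day 0, 61, 79 and 89 nt at day 4, and 61, 51 and 52 nt at day 8. The last was the longest of all, chr22:27069264-27069815 (552 nt), with 541, 538 and 538 nt covered at day 0, 429, 496 and 479 nt at day 4, and 332, 400 and 367 nt at day 8. In each of the 4 the day 8 libraries covered less than any day 0 library, so these regions persisted with a shorter covered length.

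Within these regions the nucleotides covered in all 9 libraries formed 11 runs. The longest was chr22:27067370-27067541 (172 nt) in the first region, beside a run of 22 nt at 27067286 to 27067307. The second region held runs of 51 nt (27067986 to 27068036) and 110 nt (27068107 to 27068216), and the third held 1 run of 48 nt (27068893 to 27068940). The last region held the other 6, of which the longest were 88 nt (27069313 to 27069400) and 84 nt (27069559 to 27069642).

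**Figure D5:**
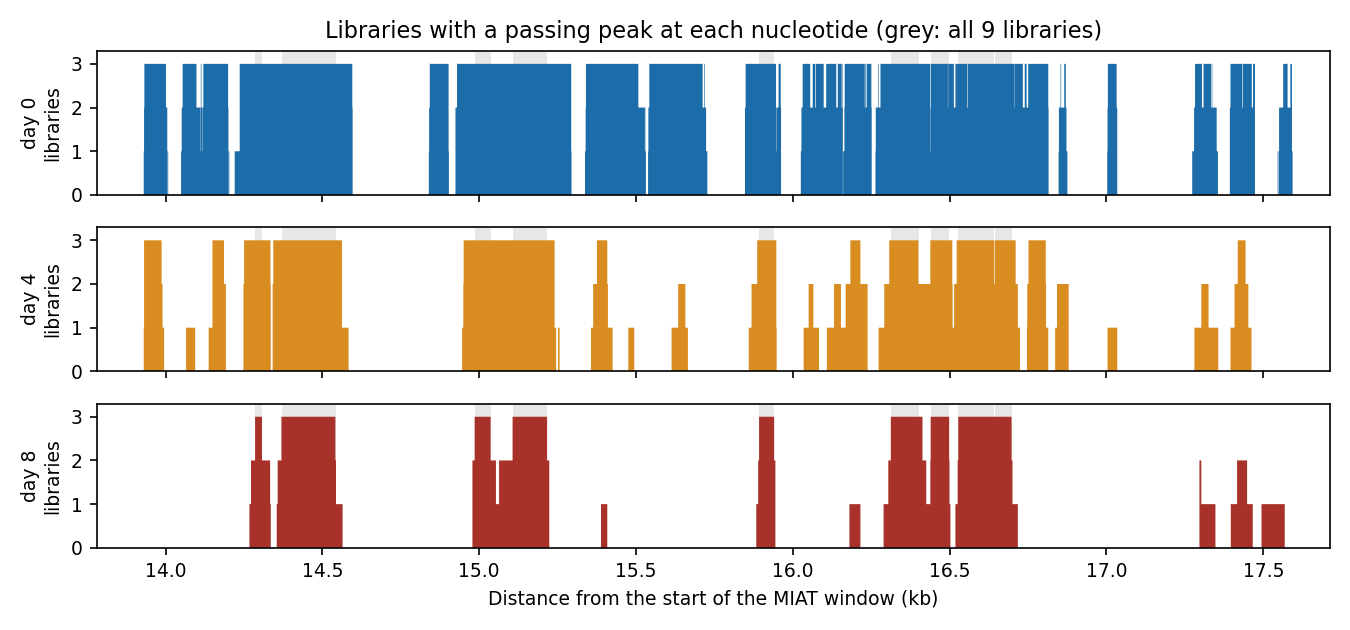
The number of libraries, out of 3, with a passing peak at each nucleotide of the main bound part of MIAT at day 0 (top), day 4 (middle) and day 8 (bottom). The x axis is the distance in kb from the window start, and grey bands mark nucleotides covered in all 9 libraries. The bands sit in 4 blocks, and the stretches between them that all day 0 libraries cover are mostly empty at day 8.

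The 6 regions lost by day 8 lay between and around these blocks. The region chr22:27067840-27067903 had 60, 62 and 64 nt covered at day 0 and none in any day 4 or day 8 library, and it was the only region of the 17 lost at both later days. It lies between the first and the second persistent region. The region chr22:27068539-27068727 had 172, 184 and 189 nt covered at day 0, 23, 0 and 52 nt at day 4, and none at day 8. It contained the longest run lost by day 8, of 170 nt at 27068543 to 27068712.

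The other 4 were lost more gradually or unevenly. The regions chr22:27066931-27067006 and chr22:27067050-27067201 passed in all 3 day 4 libraries and in no day 8 library. The first of them had 70, 73 and 76 nt covered at day 0 and 56, 60 and 64 nt at day 4, and the next had 130, 142 and 152 nt at day 0 and 37, 43 and 84 nt at day 4. The region chr22:27069837-27069879 passed in 2 day 4 libraries, with 7, 24 and 28 nt at day 0 and 0, 37 and 43 nt at day 4. The region chr22:27070003-27070034 passed in day 4 replicate 3 only, with 28, 31 and 32 nt at day 0 and 31 nt in that library.

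Regions at the ends of the bound part varied between libraries of 1 day. The region chr22:27065918-27065982 passed in 8 of 9 libraries, all but day 8 replicate 3. The region chr22:27066407-27066459 passed in all day 0 libraries, in no day 4 library, and in day 8 replicates 1 and 3. Beyond 27071000 no region passed in more than 1 library of a day.

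The authors' merged lists, which hold the peaks that passed their 3-way IDR comparison, also held less covered length at the later days. MIAT had 239 of 7778 merged peaks at day 0 (3.07%), 34 of 947 at day 4 (3.59%) and 10 of 1576 at day 8 (0.635%). The covered length was 2446, 1495 and 898 nt in this order, and the median width was 7, 36.5 and 69.5 nt. All 34 day 4 peaks and all 10 day 8 peaks overlapped the day 0 list, against 86.0% of the whole day 4 list and 64.7% of the whole day 8 list. Of the 239 day 0 peaks, 161 (67.4%) overlapped the day 4 list, against 15.4% of the whole day 0 list, and 109 (45.6%) overlapped the day 8 list, against 17.05%. A passing peak was missing in all day 4 libraries for 43 of them (17.99%, against 42.7% of the list) and in all day 8 libraries for 103 (43.1%, against 44.7%). The 239 day 0 peaks formed only 52 footprints, and a wide later peak can overlap many narrow ones. These 4 shares therefore count pieces of the same stretch separately, and nothing particular to MIAT is read from them against the list.

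Which region held the highest fold within a merged list differed between days. At day 0 all 10 of the peaks with the highest authors' fold in the whole list lay in MIAT, and so did 91 of the top 100. They were led by a 3-nt peak at 27068057 to 27068059 with a log2 fold of 12.11, followed by 27068040 to 27068050 (11 nt, 12.08), both in the second persistent region. At day 4, 21 of the top 100 lay in MIAT, and the best, at rank 2, was also in the second region, at 27068008 to 27068062 (55 nt, 9.55). At day 8, 8 of the top 100 lay in MIAT, and the best, at rank 7, was in the first region, at 27067370 to 27067543 (174 nt, 9.09).

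The 10 day 8 merged peaks all lay in the 4 persistent regions, with 2, 3, 1 and 4 in them in order of position. After the peak at rank 7 came 27069519 to 27069644 (126 nt, log2 fold 8.17, rank 16) and 27069433 to 27069499 (67 nt, 7.79, rank 29), both in the last persistent region. The lowest was the only one in the third region, at 27068884 to 27068944 (61 nt, 4.78, rank 893). The second region, which held MIAT's best peak in the lists of day 0 and day 4, had its best day 8 peak at rank 33, at 27068139 to 27068216 (78 nt, 7.64).

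The leading region also differed between the single libraries. The highest log2 fold within MIAT lay in the second region in day 0 replicates 2 and 3 (12.11 and 12.89) and in all day 4 libraries (9.17, 10.52 and 8.74). In the day 8 libraries it lay in the first region (7.95, 9.71 and 9.16), where the second region reached 7.69, 8.03 and 7.66. In day 0 replicate 1 the second and the last persistent region both reached 12.44.

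The loci whose share of passing peaks followed that of MIAT most closely over the 9 libraries were found by Pearson correlation of the log2 shares. The first was plus-strand chr4:93518771-93622483 (r = 0.955), which had 20, 25 and 26 passing peaks at day 0, 1, 4 and 3 at day 4 and 0 in each day 8 library. The next were minus-strand chr19:8151113-8162050 (r = 0.940) and plus-strand chr11:32919021-32944404 (r = 0.922). The points share the library totals of the same 9 libraries, and the correlations are a description.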

How the data were processed

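QKI eCLIP peak lists of 9 IP libraries and 3 merged lists, 1 per day, were used, and the 9 input libraries of the 18 samples were not analysed here. Each list gives, per the file headers, the authors' input-normalized log2 fold over input and the deposited −log10 p-value of each peak on hg19, and the merged lists hold peaks at 4-fold that passed IDR. Per the submitters' processing notes, cutadapt, STAR and SAMtools were used, without versions. The peak caller was not given in the sources used here, and neither was the treatment of duplicate reads. Peak numbers depend on how a caller divides a covered stretch, so covered nucleotides are given beside them. RefSeq gave the gene's names only. Exon positions and sequence on hg19 were not used here.

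Peaks on the plus strand of the window were kept, with fold at least 4 and p at or below 0.001 as passing. Titles of the samples gave the groups and replicates. Shares, as log2 of (peaks or nucleotides + 0.5) over (library total + 1) × 10000, were fitted over the 155 loci and 9 libraries with limma 3.58.1 (R 4.3.3; eBayes with a variance trend) and Benjamini-Hochberg adjustment at 0.05. Only the fit on peak numbers was run on simulated data, and the fit on covered nucleotides was not. Positions were tested by exact permutation over 280 partitions (Python 3.11.15, NumPy 2.4.6, SciPy 1.17.1), with no direction for the F statistic and one-sided for the Jaccard index. Regions named are those passing in 9 of 9 libraries, those passing in 3 of 3 libraries at day 0 and 0 of 3 at day 8, those gained at a later day (none), and those with the highest authors' folds per merged list. The 3 loci most like MIAT were named by correlation.

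The locus, the lists and the tests were chosen with earlier results of these data known. The fit on covered nucleotides as a result of its own, the footprints and the nucleotide classes were added after the peaks were seen. The same replicate numbers in the 3 days were not treated as pairs in the main fit. Deviations from the day means correlated from -0.13 to 0.19 for the 9 pairs of the same number and from -0.35 to 0.36 for the 18 others. With 3 libraries per day these values cannot exclude a pairing. Alternatives covered the threshold, equal peak numbers, pseudocounts, locus definitions, the replicate block and leaving out each library.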

Additional observations from a re-analysis of the deposited data

How the results depend on the processing

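Over 19 results and 287 alternatives, 263 were labelled the same. For differences this meant the same direction and the same side of the threshold. For the median bound position it meant the same side of the threshold, and for counts a value within 1.5 times. Part of this count rests on the threshold for the shares of passing peaks, from which no test is read. For the share of passing peaks (log2), the day 4 minus day 0 difference of -0.98 was -1.57 with every listed cluster and -2.56 with equal numbers of peaks, and it turned to 1.05 by covered nucleotides and 0.81 by footprints. The day 8 minus day 0 difference of -2.58 was -0.10 by nucleotides and -0.32 by footprints. The day 8 minus day 4 difference of -1.60 was -0.66 with every listed cluster, -1.15 by nucleotides and -1.13 by footprints. Without 1 library each, the 3 differences ranged from -1.20 to -0.60, from -3.01 to -2.19 and from -2.03 to -1.21. For the share of covered nucleotides, the day 4 minus day 0 difference turned to -0.60 and the day 8 minus day 0 difference moved to -1.24 with equal numbers of peaks, and the day 8 difference was 0.25 with every listed cluster. Without 1 library each they ranged from 0.74 to 1.49 and from -0.56 to 0.30, the last without day 8 replicate 3. The replicate block left the differences as they were (-0.98, -2.58 and -1.60 by peaks, 1.05, -0.10 and -1.15 by nucleotides). It changed no call for MIAT by nucleotides, and no call is read by peaks. The permutation p of the median bound position was 0.025 at p at or below 0.00001 and 0.0179 with midpoints, and 0.00357 to 0.771 without 1 library. The difference in positional similarity of 0.243 turned to -0.0264 with the shared nucleotides over the smaller library, and was 0.189 to 0.285 without 1 library. Counted as footprints, the peaks per library averaged 31.7 at day 0 and 19.3 at day 4. With at least 50% of a region covered, 2 regions and not 4 passed in all 9 libraries. The cause of these differences was not tested. The nucleotide share as a result, its alternatives, the overlap over the smaller library and the footprints were added after the data were seen. Depth is unknown, and it limits how far day 0 and later libraries can be compared.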
